A study of Chlorocebus sabaeus with 4 samples.

Results

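The corpus luteum of a vervet monkey (Chlorocebus sabaeus) under calorie restriction was compared with that of a vervet fed ad libitum. Each diet was represented by 1 adult female of 16 years, monkey 1031 under calorie restriction and monkey 1030 fed ad libitum, and each animal gave samples 1 and 2 of its corpus luteum. All 4 arrays of the series entered the comparison, 2 for each animal. The difference of a gene is the mean log2 signal of the calorie restriction samples minus that of the ad libitum samples, so a positive value means a higher signal under calorie restriction. Genes were taken where both values of an animal lay beyond both values of the other, and the same difference was computed again against ad libitum sample 1 alone. Diet and animal cannot be told apart with 1 animal for each diet. The study used each animal as its own control for a change of weight, and the labels do not say which sample number was collected first, so the samples of an animal need not represent 1 state.

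The corpus luteum forms from the follicle after ovulation. Its large and small luteal cells, which derive from granulosa and theca cells, take up cholesterol and turn it into progesterone, and a dense bed of capillaries supplies them. Without pregnancy the gland regresses within the cycle: steroid synthesis stops, vessels are lost, and macrophages and other immune cells remove dying cells. Secreted regulators of the Wnt, hedgehog and activin pathways act in the ovary during follicle growth and luteal formation. Whole tissue was measured, so fewer cells of a type and less RNA per cell cannot be told apart in any value given here.

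The array design is a human one, and its 54675 probe sets could be assigned to 19775 genes. The median of the genes' mean log2 signals was 5.26, and the 9888 genes from there upwards were counted and tested. Some markers of the tissue were high in every sample. The cholesterol carrier gene STAR, the side-chain cleavage enzyme gene CYP11A1 and the luteinising hormone receptor gene LHCGR had log2 signals of 9.002 to 12.49. The 25th percentile over all genes was 3.55. Other luteal markers were low in ad libitum sample 2, such as CYP19A1 (4.41), NR5A2 (5.305) and HSD11B1 (5.68). NR5A1 was 4.02 to 4.67 over the 4 samples. STAR and LHCGR are also on the list of theca markers, so these values do not single out a corpus luteum. Ad libitum sample 2 stood apart from the others. It differed 2-fold or more from each of the other samples in 912 to 1031 genes, and the other samples differed among themselves in 122 to 333. The signals of the 11 markers of luteal steroidogenic cells were also summed on the linear scale, where the highest genes weigh most. The log2 of that sum was 14.95 and 12.09 in ad libitum samples 1 and 2 and 13.66 and 14.35 in calorie restriction samples 1 and 2. Ad libitum sample 2 was thus also the lowest in luteal markers.

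Of the 9888 genes past the level filter, 1645 (16.6%) lay higher in both calorie restriction samples than in both ad libitum samples, and 1848 (18.7%) lay lower in both. With a mean difference of at least 2-fold as well, 179 genes (1.81%) were higher and 126 (1.27%) were lower under calorie restriction. These words stand for that rule of size and separation throughout, and not for a test. A further 68 of the 373 genes that were 2-fold apart had values that overlapped between the animals. The values closest to the threshold were those of NUSAP1 (log2 difference -1.005), SREBF1 (1.005), SPOCK2 (1.006) and KDR (1.006) just inside it, and of MT1G (-0.999) and TRIM9 (0.999) just outside it.

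No gene passed the test across genes. With limma, 0 of 9888 genes had a Benjamini-Hochberg adjusted p under 0.05, the lowest adjusted p was 0.442, and 522 genes (5.28%) had an unadjusted p under 0.05. That percentage is close to the share of 0.05 that the threshold itself allows. Without ad libitum sample 1, 474 genes passed, with the spread of the lone ad libitum sample taken from the calorie restriction samples, and without any other sample 0 passed, with an unadjusted limma p under 0.05 in 173 to 791 genes. These p-values measure only the spread between samples of these 2 animals. For any gene taken alone, the exact permutation test of 2 against 2 samples cannot give a two-sided p below 0.333. The median standard error of a difference was 0.22 on the log2 scale.

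Without ad libitum sample 2, 125 of the 305 genes were still at least 2-fold apart, namely 60 of the 179 higher genes (33.5%) and 65 of the 126 lower genes (51.6%). Genes that met both conditions made up 0.607% and 0.657% of all genes past the filter. A gene whose values do not overlap keeps its direction without that sample by construction, so only its size bears on whether it holds, and a gene is said to hold below where its difference from ad libitum sample 1 is still 2-fold. Holding says nothing of dependence on ad libitum sample 1. Without that sample, ANKRD37, ECI2, NEFM, PTGS1, SREBF1, NUSAP1, CDCA3 and VSNL1, all given below as genes that held, came under 2-fold. Ad libitum sample 2 lay farther from the calorie restriction mean than sample 1 did in 262 of the 305 genes. The median log2 difference of the higher genes was 1.30 with both ad libitum samples and 0.85 without sample 2, and that of the lower genes was -1.43 and -1.03. The counts themselves moved with the sample left out: 606 genes were higher and 331 lower without ad libitum sample 1, 70 and 155 without ad libitum sample 2, 178 and 195 without calorie restriction sample 1, and 257 and 146 without calorie restriction sample 2. In 74 genes, 40 higher and 34 lower, even the nearest values of the animals were 2-fold apart.

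**Figure D1:**
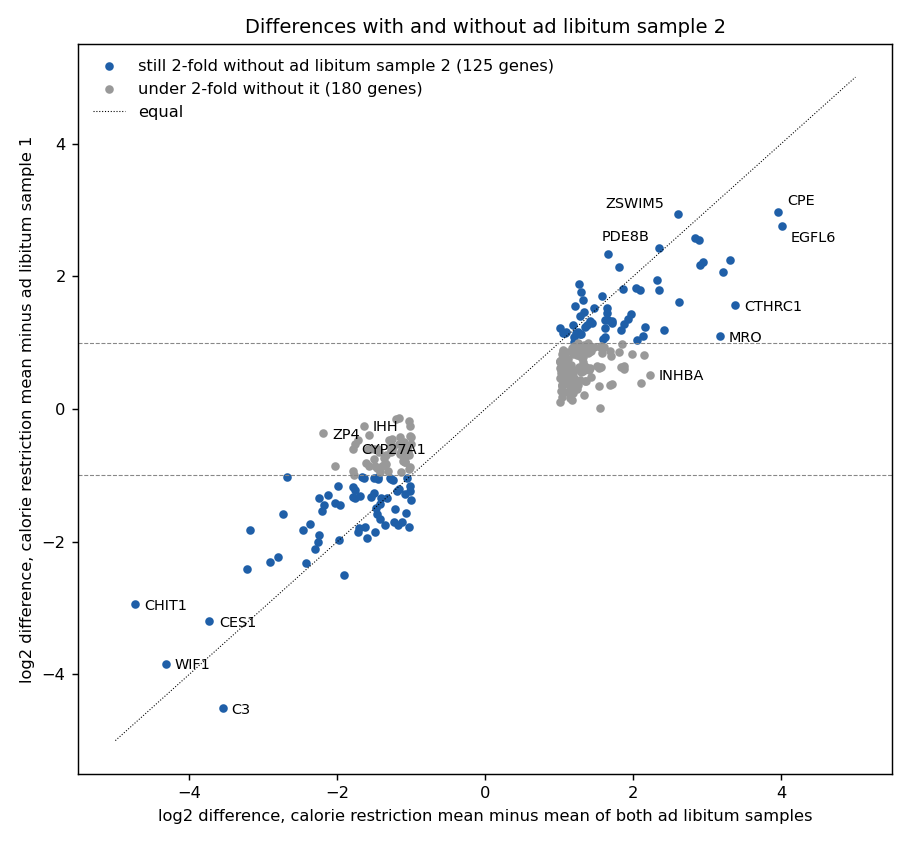
Log2 difference of the 305 genes that were higher or lower under calorie restriction, with both ad libitum samples (horizontal axis) and against ad libitum sample 1 alone (vertical axis), 1 point for each gene. Blue points are the 125 genes that stay beyond 2-fold (dashed lines) without ad libitum sample 2 and grey points the 180 that do not; CPE, EGFL6, WIF1 and CES1 lie far out on both axes, while INHBA, ZP4 and IHH lie close to 0 on the vertical axis.

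EGFL6 and CPE had the largest differences upwards. EGFL6, which encodes a secreted protein with EGF-like repeats, had log2 signals of 6.99 and 4.49 in the ad libitum samples and 9.87 and 9.62 in the calorie restriction samples, a difference of 4.00 with a standard error of 0.83. CPE, carboxypeptidase E, an enzyme that trims peptide hormones in secretory granules, had log2 signals of 8.24 and 6.26 against 11.48 and 10.93, a difference of 3.95 (standard error 0.69). Both held without ad libitum sample 2, at 2.75 and 2.96, and a second probe set of CPE gave 3.26. The nearest values of the animals were 2.63 and 2.69 apart, wider than the distance between the ad libitum samples in both genes.

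CTHRC1, which encodes a secreted protein of matrix-forming cells, had log2 signals of 9.23 and 5.59 in the ad libitum animal and 10.92 and 10.66 in the calorie restriction animal. Its difference of 3.38 came to 1.56 without ad libitum sample 2. MRO, or maestro, had 11.01 and 6.86 against 11.64 and 12.57, a difference of 3.17 that came to 1.09. In both genes ad libitum sample 2 lay far below all other samples. TGFA, a ligand of the EGF receptor, had 5.29 and 3.15 against 7.16 and 7.90 (difference 3.31, 2.24 without sample 2). The low value of TGFA in ad libitum sample 2 was below 3.55, the 25th percentile given above, which leaves its size less sure than its direction, and the same holds for ad libitum sample 2 of QPCT at 3.43 and calorie restriction sample 2 of GAL at 3.28, both given below. The muscarinic acetylcholine receptor gene CHRM3 had log2 signals of 6.17 and 3.87 against 8.15 and 8.30 (3.20 and 2.06). The second probe set of CHRM3 past the filter gave 2.06.

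A second set of higher genes separated the animals with little dependence on either ad libitum sample. PTGR1, an enzyme that inactivates prostaglandins and leukotriene B4, had log2 signals of 7.91 and 7.39 in the ad libitum samples and 10.76 and 10.21 in the calorie restriction samples. The difference of 2.83 (standard error 0.31) was 2.57 without ad libitum sample 2, and another probe set gave 2.80. CHAD, chondroadherin, a leucine-rich matrix protein, had 5.11 and 4.45 against 7.77 and 7.55 (2.88, and 2.55 without sample 2). The cyclic nucleotide phosphodiesterase gene PDE8B, whose product breaks down cyclic AMP, had 5.14 and 5.28 against 7.74 and 7.38 (2.35 and 2.42). In these 3 genes the gap between the animals was wider than the distance between the samples of either animal. ZSWIM5 was likewise larger without sample 2, at 2.94 against 2.60 with it.

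The peptidase inhibitor gene PI16, a marker of a class of fibroblasts, had log2 signals of 9.08 and 7.61 in the ad libitum samples and 11.28 and 11.30 in the calorie restriction samples, a difference of 2.95 that held at 2.21. GNLY, granulysin, a protein of cytotoxic lymphocyte granules, had 8.17 and 6.69 against 10.44 and 10.23 (2.91 and 2.17), and its second probe set gave 1.27. The remaining genes among the 15 largest, UCHL1 (2.62), QPCT (2.41) and TRABD2A (2.35), held at 1.61, 1.20 and 1.79. All 15 were thus still 2-fold higher without ad libitum sample 2, and they are the largest by choice, so that count is a description.

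CHIT1, chitotriosidase, an enzyme secreted by activated macrophages, had the largest difference downwards. Its log2 signals were 7.93 and 11.51 in the ad libitum samples and 5.95 and 4.02 in the calorie restriction samples, a difference of -4.74 with a standard error of 1.32, and -2.95 without ad libitum sample 2. The distance between its ad libitum samples, 3.58, was the widest among the 15 largest lower genes. WIF1, a secreted inhibitor that binds Wnt ligands, had 7.26 and 8.20 against 3.17 and 3.67, a difference of -4.32 (standard error 0.37), or 19.9-fold, and -3.85 without sample 2. It had the lowest unadjusted limma p of all genes, 0.000103, shared to that precision with PDE8B, and an adjusted p of 0.442. The calorie restriction values of WIF1 lay on either side of the 25th percentile of all genes, which makes its fold a rough one.

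CES1, a carboxylesterase that cleaves lipid esters, had log2 signals of 7.15 and 8.23 in the ad libitum samples and 3.95 and 3.94 in the calorie restriction samples (-3.74, and -3.20 without sample 2). C3, the central protein of complement, had 9.85 and 7.92 against 5.10 and 5.57, and was the only one of the 15 largest lower genes in which ad libitum sample 1 was the farther one, with a difference of -3.55 that was -4.51 without sample 2. MFAP4, a protein of elastic microfibrils, had 6.61 and 8.23 against 4.21 and 4.20 (-3.22 and -2.41). The samples of the calorie restriction animal were nearly equal in CES1 and MFAP4, and those of the ad libitum animal were 1.08 and 1.61 apart.

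BHLHE41, a transcriptional repressor of the circadian clock, had log2 signals of 6.42 and 9.12 in the ad libitum samples and 5.21 and 3.98 in the calorie restriction samples, a difference of -3.17 that came to -1.82. It had no other probe set past the level filter. BOC, a co-receptor of hedgehog ligands, had 8.97 and 10.13 against 7.08 and 6.40 (-2.81 and -2.23), while another of its probe sets past the filter gave -0.001. The probe sets of BOC thus disagree. PTGDS, a prostaglandin D synthase, had 9.78 and 10.17 against 8.10 and 7.23 (-2.31 and -2.11), with -2.62 in another probe set.

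The other lower leaders were FST (-2.73), MLANA (-2.68), ECRG4 (-2.47), PWWP3B (-2.43), SFRP2 (-2.38) and the gene of the neuropeptide galanin, GAL (-2.26). They came to -1.59, -1.03, -1.82, -2.32, -1.73 and -2.01 without ad libitum sample 2, so MLANA was the nearest to the threshold. The chemokine gene CCL21, which guides lymphocytes and dendritic cells to lymphatic vessels, was added by the width of its gap. Its log2 signals of 7.999 and 7.990 in the ad libitum samples and 6.32 and 5.72 in the calorie restriction samples gave -1.97 with sample 2 and -1.98 without.

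**Figure D2:**
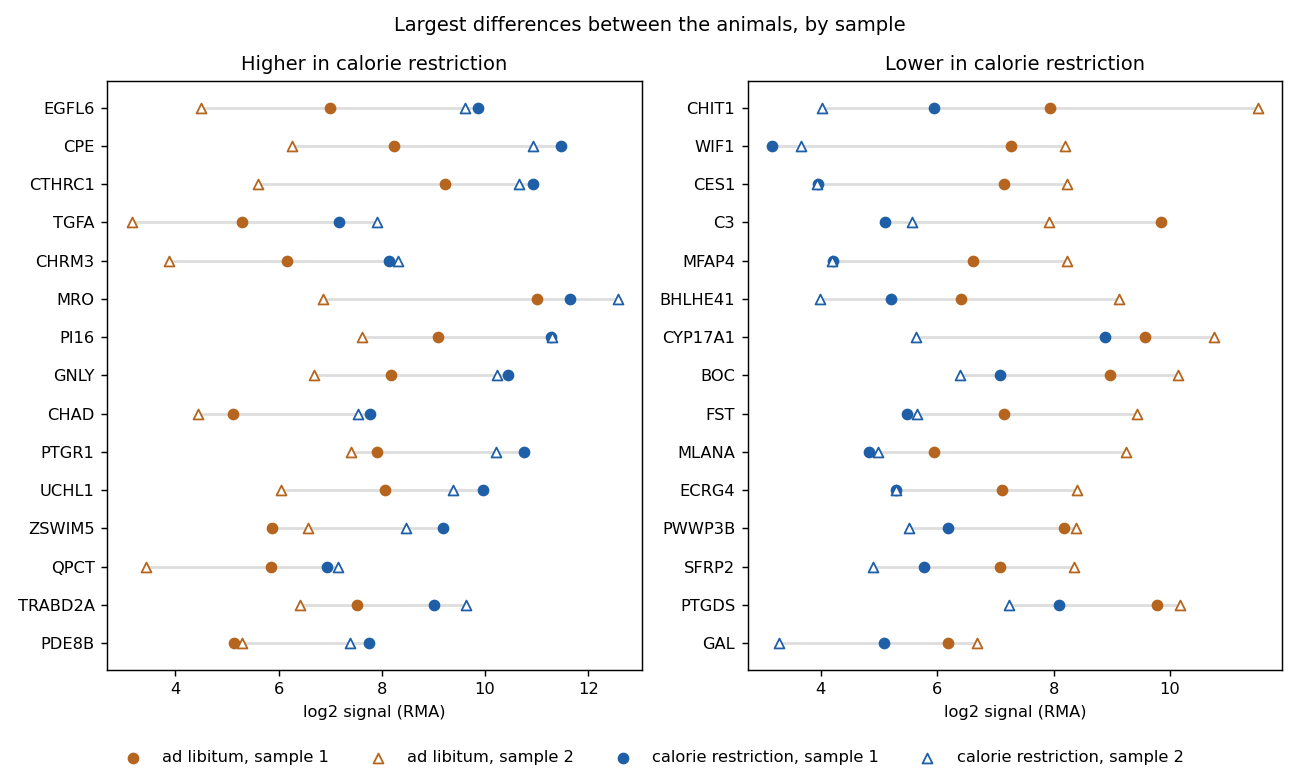
Log2 signal in each of the 4 samples (brown ad libitum, blue calorie restriction; circles sample 1, triangles sample 2) for the 15 largest differences in each direction among genes whose animals do not overlap. The ad libitum triangle is the point farthest from the blue points in most genes, and C3, ZSWIM5 and PDE8B are exceptions.

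Another kind of gene differed between the animals and hardly at all within them. It was picked after the values were seen and is given as a description. RELN, reelin, a large secreted glycoprotein, had log2 signals of 6.54 and 6.51 in the ad libitum samples and 5.04 and 5.05 in the calorie restriction samples, a difference of -1.48. CKB, the brain-type creatine kinase that buffers cellular ATP, had 8.28 and 8.26 against 6.96 and 6.90 (-1.34). PHEX, a membrane peptidase, had 9.28 and 8.98 against 7.51 and 7.31 (-1.72). Among higher genes, NTN4, netrin 4 of basement membranes, had 6.22 and 6.47 against 8.03 and 7.81 (1.58), and ENTPD1, the ectonucleotidase CD39, had 7.91 and 7.68 against 9.06 and 9.24 (1.35). In all, 48 of the 305 genes, 30 higher and 18 lower, had less than 1.5-fold between the samples of each animal.

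Several genes of regulated secretion and of neurons were among the genes that held, and they too were picked after the values were seen. CHGB, secretogranin 1 of hormone granules, had log2 signals of 6.51 and 6.74 in the ad libitum samples and 7.97 and 7.84 in the calorie restriction samples (1.28, and 1.39 without sample 2). SNAP25, which docks vesicles at the membrane, had 5.64 and 5.91 against 7.11 and 7.09 (1.33 and 1.46). The neuronal intermediate filament gene INA (1.86) and the calcium sensor gene VSNL1 (1.31) were higher as well, next to CPE and UCHL1 above. Other neuronal genes went the opposite way: the neurofilament genes NEFL (-2.79, below the level filter) and NEFM (-1.19) and the adhesion gene NCAM1 (-2.13) were lower, and all 3 held.

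Members of gene lists were counted whatever their level, and the matching background is therefore that of all 19775 genes. Of those, 18.3% lay above and 17.5% below without overlap, 0.991% were higher and 0.986% lower by 2-fold, 0.349% and 0.531% also held, and the median difference was 0.00, or 0.01 without ad libitum sample 2. The lists were written with earlier results of these samples in view, so their counts describe these samples and are no independent evidence of a direction.

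**Figure D3:**
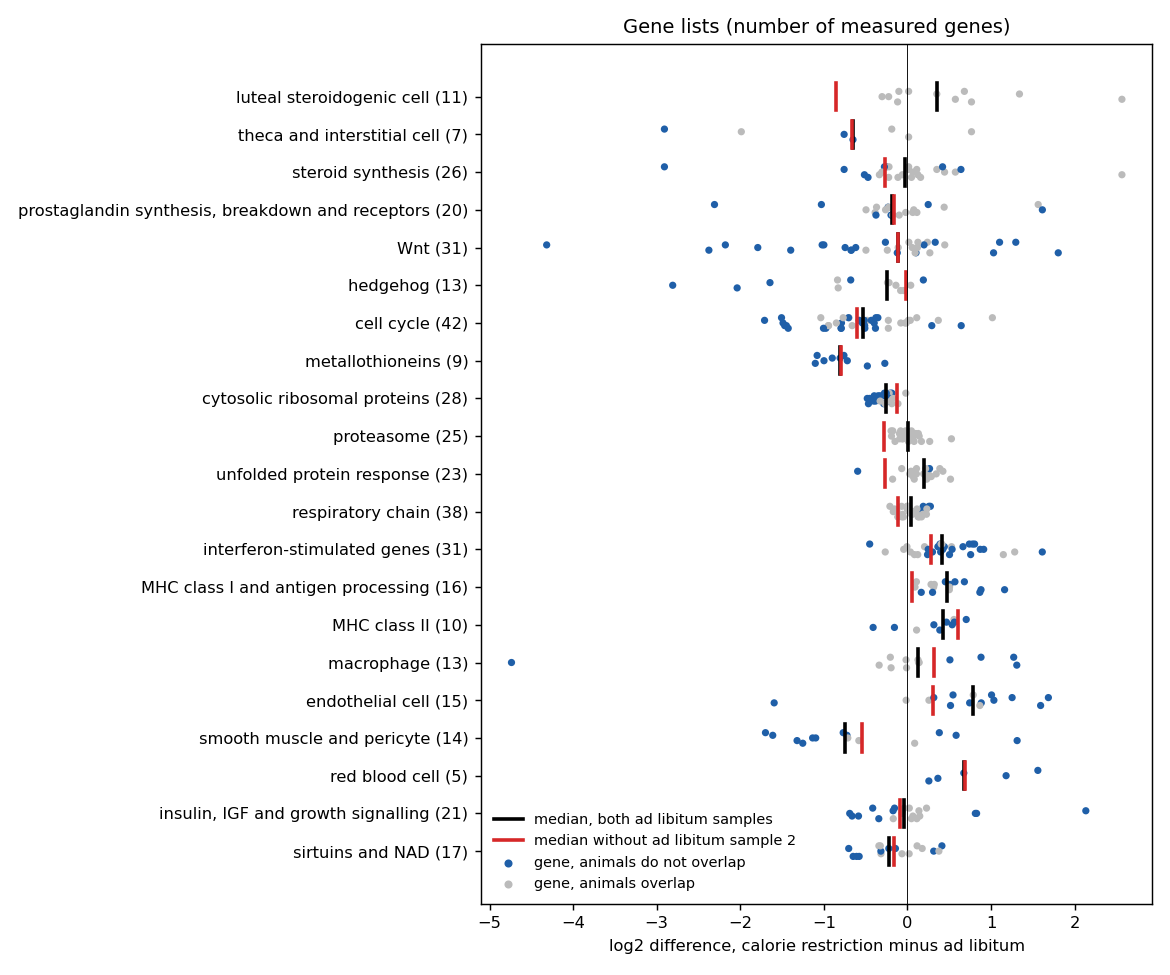
Log2 difference of each measured gene (points) in 21 lists, with the number of measured genes after each name. Blue points are genes whose animals do not overlap, black bars the median with both ad libitum samples and red bars the median without ad libitum sample 2; the 2 bars lie on opposite sides of 0 for luteal steroidogenic, proteasome, unfolded protein response and respiratory chain genes and nearly coincide for metallothioneins, Wnt and theca genes.

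Wnt proteins are secreted growth factors that bind Frizzled receptors and stabilise beta-catenin, and secreted inhibitors hold them back. Of 31 measured Wnt genes, 6 were lower and 4 higher, 5 of these 10 held, and 13 lay below and 7 above without overlap, with a median difference of -0.11 with and without ad libitum sample 2. The inhibitors divided. WIF1 and SFRP2 were lower, as was SFRP1, whose log2 signals were 8.53 and 9.77 in the ad libitum samples and 7.43 and 7.29 in the calorie restriction samples (-1.79, and -1.17 without sample 2). SFRP2 had 7.08 and 8.36 against 5.78 and 4.90, and a second probe set of it gave -1.76. SFRP4, a relative of both, went the other way, with 7.12 and 7.78 against 8.98 and 9.53 (1.80 and 2.14), and a second probe set gave 1.76. FRZB, a further inhibitor of this family, was also higher (1.10), but came to 0.64.

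Among ligands, WNT2B had log2 signals of 5.77 and 7.24 in the ad libitum samples and 4.31 and 4.34 in the calorie restriction samples (-2.18 and -1.44). WNT5A lay lower without overlap (-0.67) and WNT4 as well (-0.62, below the level filter), both under 2-fold. AXIN2, a direct target of beta-catenin signalling, had 7.03 and 8.09 against 6.70 and 5.63, and TCF7L2, a transcription factor of that pathway, had 9.65 and 9.94 against 8.88 and 8.67. Both were lower, by -1.40 and -1.02, and neither held, at -0.87 and -0.88. The Frizzled receptors had both directions: FZD6 (1.30) and FZD4 (1.03) were higher, while FZD7, just short of the 2-fold rule, FZD1 (-0.75) and FZD2 (-0.67) lay lower without overlap and under it. The 5 genes that held were WIF1, SFRP2, WNT2B, SFRP1 and SFRP4.

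**Figure D4:**
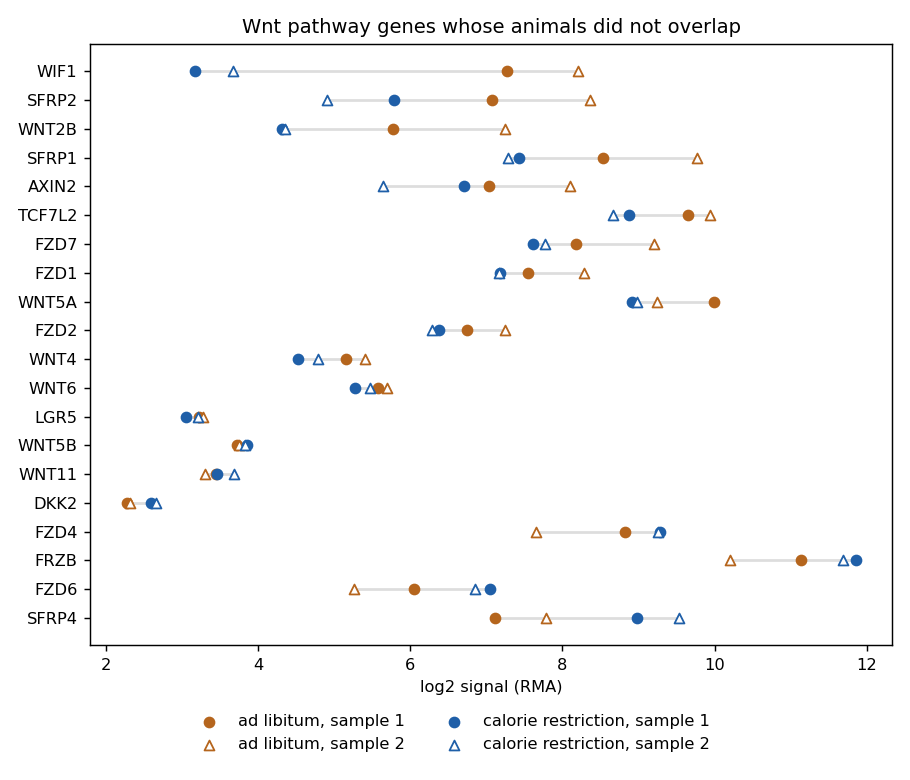
Log2 signal in each sample for the 20 Wnt genes whose animals do not overlap (brown ad libitum, blue calorie restriction; circles sample 1, triangles sample 2), ordered from the most negative to the most positive difference. WIF1, SFRP2, WNT2B and SFRP1 lie lower and SFRP4 higher in both blue points by 2-fold or more, and genes from WNT6 to DKK2 lie within 1.5-fold.

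Genes of cell division leaned lower under calorie restriction. Of 42 measured cell cycle genes, 22 lay below and 2 above without overlap, 7 were lower and 0 higher, and the median difference was -0.53, or -0.60 without ad libitum sample 2. The 7 were UBE2C (-1.71), a ubiquitin-conjugating enzyme of mitotic exit, the mitotic kinase AURKA (-1.51), the checkpoint kinase BUB1 (-1.49), CDC20 (-1.47), an activator of the anaphase-promoting complex, the replication helicase subunit MCM5 (-1.45), the mitotic cyclin CCNB2 (-1.43) and the spindle protein NUSAP1 (-1.01). All 7 held. UBE2C had log2 signals of 8.35 and 8.19 in the ad libitum samples and 5.83 and 7.29 in the calorie restriction samples, and CDC20 had 8.18 and 7.96 against 6.10 and 7.10.

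In these genes it was calorie restriction sample 1 that lay lowest. AURKA had 6.13 and 6.60 against 4.39 and 5.33, and BUB1 had 6.93 and 6.20 against 4.55 and 5.61. Without calorie restriction sample 1, 2 cell cycle genes were lower and the median was -0.33. Without calorie restriction sample 2, 17 were lower and the median was -0.76, and without ad libitum sample 2, 17 were lower as well. Without ad libitum sample 1, 6 were lower and 1 higher and the median was -0.41. The median was negative with any 1 sample left out, and the number of lower genes moved with the sample in both animals. The cyclin-dependent kinase inhibitor CDKN1A, which halts division, lay above without overlap (0.64). Outside the list, the mitotic genes DLGAP5 (-1.63), CENPU (-1.29), CDCA3 (-1.24) and the chromatin factor ATAD2 (-1.42) also held, and were picked after their values were seen. Other probe sets past the filter gave -0.28 for CDCA3 and -0.32 for ATAD2.

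Metallothioneins, small proteins that bind zinc and copper, lay lower in every measured member. All 9 had both calorie restriction values below both ad libitum values, with a median difference of -0.81, or -0.80 without ad libitum sample 2. MT1H had log2 signals of 9.73 and 10.41 in the ad libitum samples and 8.64 and 9.29 in the calorie restriction samples (-1.10), and MT1X had 9.28 and 9.85 against 8.24 and 8.73 (-1.08). These were the 2 lower by 2-fold, and neither held, at -0.76 and -0.80. MT2A (-0.90), MT1G (-0.999), MT1F (-0.81), MT1E (-0.76) and MT3 (-0.72) followed, and MT1M (-0.48) and MT4 (-0.27) lay below the level filter. Members of this family are near-identical in sequence and their probe sets can share signal, so the 9 are not separate observations.

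Cytosolic ribosomal proteins lay slightly lower. Of 28 measured, 20 lay below and 0 above without overlap, none was 2-fold apart, and the median was -0.26, or -0.13 without ad libitum sample 2. The log2 of the summed signal of the list was 17.32 and 17.62 in the ad libitum samples and 17.15 and 17.28 in the calorie restriction samples, so the separation between the nearest samples was small.

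**Figure D5:**
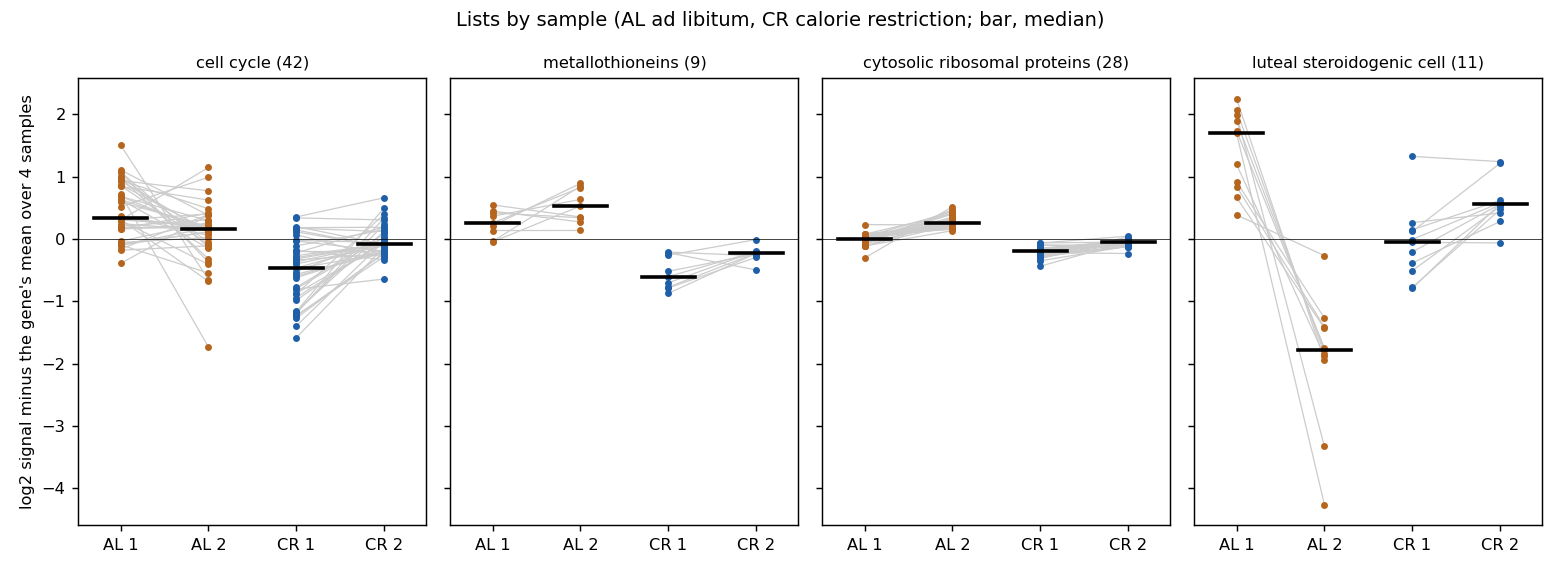
Log2 signal of each measured gene minus its mean over the 4 samples, by sample, for cell cycle genes, metallothioneins, cytosolic ribosomal proteins and luteal steroidogenic markers (points joined by gene; black bars, medians). The medians of metallothioneins and ribosomal proteins lie lower in both calorie restriction samples, calorie restriction sample 1 is the lowest for cell cycle genes, and the luteal markers divide the ad libitum samples from each other instead of the animals.

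The steroid-making genes of luteal cells did not separate the animals. None of the 11 luteal markers was free of overlap, with a median difference of 0.35, because the calorie restriction samples lay between the ad libitum samples. STAR had log2 signals of 12.49 and 9.002 in the ad libitum samples and 10.24 and 11.28 in the calorie restriction samples (0.01), the HDL receptor gene SCARB1 had 10.91 and 7.24 against 8.64 and 9.30 (-0.10), and HSD3B2, of the enzymes that make progesterone, had 9.97 and 6.07 against 7.11 and 8.47 (-0.23). Without ad libitum sample 2 all 11 lay below sample 1, with a median of -0.86 and differences of -1.73, -1.94 and -2.18 for these genes. Against ad libitum sample 2 alone the median was 1.76. The direction of the luteal markers thus turns with the ad libitum sample used, and the animals cannot be ordered by them.

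Aromatase, CYP19A1, which makes estrogen, had 10.38 and 4.41 against 10.002 and 9.92. Its difference of 2.57 overlapped and was -0.42 without ad libitum sample 2. CYP11A1 (0.35 with and -0.74 without), LHCGR (0.77 and -0.28) and VEGFA, the main vascular growth factor (1.49 and -0.09), turned in the same way, and PTGFR, the receptor of the luteolytic prostaglandin F2 alpha, came from 1.56 to -0.32 below the level filter. For CYP19A1, CYP11A1, LHCGR and VEGFA the ad libitum samples lay on either side of both calorie restriction samples. The proteasome (0.01 and -0.29 over 25 genes), the unfolded protein response (0.19 and -0.27 over 23) and the respiratory chain (0.04 and -0.11 over 38) had medians that turned likewise, with 0 genes at 2-fold.

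Of 7 measured markers of theca and interstitial cells, 3 lay below and 0 above without overlap, and 1, CYP17A1, was lower. CYP17A1, the enzyme that commits steroids to androgens, had log2 signals of 9.57 and 10.76 in the ad libitum samples and 8.89 and 5.63 in the calorie restriction samples, a difference of -2.91 with a standard error of 1.13, and -2.31 without ad libitum sample 2. CYB5A, its partner cytochrome b5, lay lower without overlap (-0.76, and -0.97 without sample 2), and TCF21 did as well (-0.65 and -0.12). The hormone gene INSL3 overlapped, with 9.18 and 11.83 against 9.51 and 7.52 (-1.99 and -0.66). Over the 7 markers the median was -0.65, or -0.66 without sample 2. Calorie restriction sample 2 was the lowest of the 4 samples for both CYP17A1 and INSL3.

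Genes of follicle regulators went both ways. FST, follistatin, which binds and blocks activin, had 7.15 and 9.44 against 5.48 and 5.65 (-2.73, and -1.59 without ad libitum sample 2), and another probe set gave -3.62. INHBA, the subunit of activin A, had 11.58 and 8.16 against 12.005 and 12.18, a difference of 2.23 that came to 0.52. Follistatin thus held and its ligand gene did not. The follicle-stimulating hormone receptor gene FSHR (-1.19, below the level filter) and GATM (-1.37), both on the granulosa list, were lower and came to -0.57 and -0.74. KIT, the receptor of stem cell factor, was higher, with 8.48 and 7.42 against 9.86 and 9.96 (1.96 and 1.44). It was named from the mast cell list and not from a follicle list. Of the 6 measured mast cell markers, 2 lay above and 1 below without overlap, and KIT alone was 2-fold apart.

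Hedgehog genes were lower in part: 3 of 13 by 2-fold, with 1 holding and a median of -0.24, or -0.01 without ad libitum sample 2. BOC held, and HHIP (-2.04), an inhibitor and target of the pathway, and the ligand gene IHH (-1.65) came to -0.87 and -0.26. IHH had 4.99 and 7.77 in the ad libitum samples and 4.67 and 4.79 in the calorie restriction samples, so ad libitum sample 2 alone was high. GAS1, a co-receptor, lay lower without overlap (-0.68 and -0.78).

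Of 20 prostaglandin genes, 5 lay below, 2 above and 13 overlapped, with 2 lower and 1 higher by 2-fold, all 3 of which held. Over all genes, 17.5% lay below and 18.3% above, so the counts without overlap were not far from the background. Besides PTGDS, the cyclooxygenase gene PTGS1 was lower, with log2 signals of 7.12 and 5.63 in the ad libitum samples and 5.33 and 5.36 in the calorie restriction samples (-1.03, and -1.78 without ad libitum sample 2). Its difference from ad libitum sample 2 alone was -0.28, so ad libitum sample 1 alone was high. SLCO2A1, the transporter that clears prostaglandins from outside the cell, was higher, with 6.75 and 5.69 against 8.15 and 7.52 (1.61 and 1.08). PTGR1, described above, breaks prostaglandins down inside the cell and was outside the list. The synthases PTGES (-0.26), PTGIS (-0.37) and PTGES2 (0.11) overlapped, HPGDS, a further prostaglandin D synthase that was outside the list, lay above without overlap (0.41), and the median of the list was -0.19.

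Vessel genes lay higher. Of 15 endothelial markers, 10 lay above and 1 below without overlap, 5 were higher and 1 lower, and the median was 0.79, or 0.30 without ad libitum sample 2. FLT1, a receptor of VEGF, had log2 signals of 7.78 and 6.15 in the ad libitum samples and 8.85 and 8.45 in the calorie restriction samples (1.69 and 0.87). TIE1, an endothelial receptor kinase, had 8.90 and 7.81 against 10.36 and 9.53 (1.59 and 1.05). The junction cadherin gene CDH5 (1.25 and 0.36), the sialomucin gene EMCN (1.03 and 0.61) and the VEGF receptor gene KDR (1.01 and 0.11) were also higher, and of the 5 higher markers TIE1 alone held. MMRN1, which marks lymphatic endothelium, went the other way, with 7.31 and 6.59 against 5.08 and 5.63 (-1.60 and -1.95). CCL21 of lymphatic vessels was lower too.

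Of 30 angiogenesis genes, 5 were higher and 0 lower, and 1 held, with a median of 0.24, or 0.11 without ad libitum sample 2. They were FLT1, TIE1, KDR, the lymphatic growth factor gene VEGFC (1.36 and 0.42) and EFNB2, an arterial ephrin (1.29 and 0.55). AQP1, the water channel of endothelium and red cells, was outside both lists and held, with log2 signals of 8.44 and 7.99 in the ad libitum samples and 10.68 and 9.84 in the calorie restriction samples (2.04 and 1.82). Endothelin 1, EDN1 (1.62 and 1.22), its receptor gene EDNRB (2.14 and 1.10) and RAMP3 (1.25 and 1.15), a partner of the adrenomedullin receptor, held as well, and were picked after their values were seen.

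Red blood cell genes lay higher as well. All 5 measured markers lay above without overlap, with a median of 0.67, or 0.69 without ad libitum sample 2. HBB, the beta globin gene, had log2 signals of 11.70 and 10.48 in the ad libitum samples and 12.33 and 12.96 in the calorie restriction samples (1.56 and 0.95), and ALAS2, the heme synthesis enzyme of red cell precursors, had 5.91 and 5.21 against 6.47 and 7.003 (1.18 and 0.83). HBD (0.67), SLC4A1 (0.36) and AHSP (0.26) lay below the level filter. The log2 of the summed signal of the list was 11.75 and 10.58 in the ad libitum samples and 12.38 and 13.00 in the calorie restriction samples. That sum is nearly all HBB, so it repeats HBB and does not add to it. Another probe set of HBB past the level filter gave 1.59, and ALAS2 had none. The part of blood in the vessel and immune genes was not tested.

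Contractile genes of smooth muscle lay lower. Of 14 smooth muscle and pericyte markers, 8 lay below and 3 above without overlap, 6 were lower and 1 higher, and the median was -0.75, or -0.54 without ad libitum sample 2. DES, desmin, had log2 signals of 8.19 and 8.97 in the ad libitum samples and 6.60 and 7.17 in the calorie restriction samples (-1.70 and -1.31), with no other probe set past the level filter. The enteric actin gene ACTG2 had 10.81 and 11.17 against 9.16 and 10.32 (-1.25 and -1.07). LMOD1 (-1.61), CNN1 (-1.32), MYH11 (-1.14) and MYLK (-1.10) were lower and did not hold, at -0.82, -0.94, -0.63 and -0.50. MYOCD, the coactivator that drives these genes, was outside the list and held, with -1.99 and -1.16. RGS5, a pericyte gene, was higher (1.31) and came to 0.71. The median of the list was -0.26 without calorie restriction sample 1, in which the 6 lower genes were lowest.

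Matrix genes went both ways. FBLN1, fibulin 1, had 6.63 and 7.85 against 5.21 and 5.20 (-2.03 and -1.42), with -0.32 in another probe set, and OGN (-2.58 and -1.92, below the level filter), a small leucine-rich proteoglycan, was lower too. PRELP, of the same family, was lower and held (-1.96 and -1.45), with -0.25 in another probe set. The collagen VI genes COL6A3 (-0.83) and COL6A1 (-0.68) lay lower without overlap, and fibronectin, FN1 (0.84), SPARC (0.75) and FMOD (0.60) lay higher. Of all 36 collagen and matrix genes, 4 lay above and 7 below without overlap, near or under the 18.3% and 17.5% of all genes. In the list 1 was lower and 0 higher, and the median was -0.01. That median turned with the ad libitum sample, at -0.21 without sample 2 and 0.26 without sample 1. Among proteases and inhibitors, the gelatinase MMP9 had 6.98 and 8.77 against 6.38 and 4.88 (-2.25 and -1.35), and TIMP3, an inhibitor of such proteases, had 7.40 and 7.17 against 8.73 and 8.22 (1.19 and 1.08).

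Interferon-stimulated genes lay higher by small amounts. Of 31 measured, 18 lay above and 1 below without overlap, 1 was higher, and the median was 0.41, or 0.28 without ad libitum sample 2. IFI44 was the higher one, with log2 signals of 8.16 and 7.62 in the ad libitum samples and 9.38 and 9.62 in the calorie restriction samples (1.61 and 1.34), with no other probe set past the level filter. BST2, or tetherin (0.91), the ubiquitin-like ISG15 (0.87), IFI6 (0.80), IFIT1 (0.78), GBP1 (0.76) and RSAD2 (0.74, below the level filter) lay above without overlap. MHC class I and antigen processing genes had 9 of 16 above and 0 below, a median of 0.48, and TAPBP (1.16, with 0.14 in another probe set), which loads peptides, higher, but the median was 0.06 and TAPBP 0.54 without ad libitum sample 2. MHC class II genes had 6 of 10 above and 2 below without overlap, with a median of 0.43, or 0.61 without that sample, and none at 2-fold; HLA-DRA had 9.61 and 10.09 against 10.59 and 10.51.

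Macrophage markers were divided. Besides CHIT1, the scavenger receptor gene CD163 had 6.84 and 5.56 against 7.501 and 7.44 (1.27 and 0.63), and the mannose receptor gene MRC1 had 6.38 and 5.50 against 7.06 and 7.44 (1.31 and 0.86). Both were higher and neither held. Of 13 markers, 4 lay above and 1 below without overlap. CD14 (0.51) and C1QA (0.88) were the others above, AIF1 (-0.01), TYROBP (-0.02) and LYZ (0.13) were among the 8 that overlapped, and the median was 0.13, or 0.32 without ad libitum sample 2. The log2 of their summed signal was 11.96 and 13.00 in the ad libitum samples and 12.22 and 12.28 in the calorie restriction samples. In ad libitum sample 2 the highest marker in that sum was CHIT1, at 11.51. Among complement genes, C3 was lower while C1QA (0.88) lay above and SERPING1 (-0.81), C1S (-0.79) and C1R (-0.76) below without overlap. The cytokine gene IL15, which sustains NK cells, was higher (1.55) and came to 0.93. Of 14 T and NK cell markers, GNLY was the only higher one, and CD8B (-1.56, below the level filter) was lower and came to -0.49.

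Genes of nutrient sensing, on which calorie restriction is studied in many tissues, showed little at 2-fold. The insulin receptor gene INSR had log2 signals of 8.73 and 8.71 in the ad libitum samples and 8.68 and 8.45 in the calorie restriction samples (-0.16), lower without overlap by a margin of 0.03, while another of its probe sets gave 0.62. IGF1R (0.05), the deacetylase gene SIRT1 (-0.34) and the adiponectin receptor genes ADIPOR1 (0.11) and ADIPOR2 (0.63) overlapped. Another probe set of IGF1R gave 0.49 without overlap. The leptin receptor gene LEPR lay below the level filter, with 2.39 and 2.37 against 2.75 and 2.45. Of 21 insulin and IGF genes, 7 lay below and 3 above without overlap, where 17.5% and 18.3% of all genes did. The median was -0.04, or -0.09 without ad libitum sample 2. Only the binding protein gene IGFBP1 was higher (2.13 and 1.24, below the level filter), and 0 were lower. IGFBP2 (0.83) and IGFBP7 (0.81) lay above, and IRS2 (-0.69) and IGFBP3 (-0.66) were among those below.

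Of 17 sirtuin and NAD genes, 7 lay below and 2 above without overlap, 0 were 2-fold apart, and the median was -0.22. SIRT5 (-0.65), SIRT2 (-0.22) and SIRT7 (-0.14) lay below and SIRT6 (0.41) and SIRT3 (0.31) above, so the family had both directions. Of 27 genes of mTOR, AMPK and nutrient sensing, 2 lay below and 1 above, 0 were 2-fold apart, and the median was -0.03. The list therefore lay under the background share of genes without overlap.

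Genes of lipid handling had several large single differences and medians near 0. FABP4, a fatty acid binding protein of adipocytes, macrophages and endothelium, had 6.22 and 7.53 against 4.70 and 4.64 (-2.20 and -1.55). FABP5, its relative, had 9.22 and 11.03 against 8.95 and 8.28 (-1.51), and the sterol hydroxylase gene CYP27A1 had 7.30 and 9.68 against 6.85 and 6.54 (-1.79). The last 2 came to -0.60 and did not hold, since ad libitum sample 2 alone was high. SREBF1, the master regulator of fatty acid synthesis, was higher, with 6.498 and 6.94 against 7.83 and 7.61 (1.01 and 1.23). The fatty acid transporter gene SLC27A2 had 5.73 and 5.46 against 7.45 and 7.04 (1.65 and 1.52), and ECI2, an enzyme of fatty acid oxidation, was lower (-1.02 and -1.17). The medians were 0.07 over 30 genes of fatty acid synthesis and storage and -0.01 over both 20 genes of fatty acid oxidation and 27 of cholesterol handling. The fatty acid oxidation median was -0.20 without ad libitum sample 2 and 0.20 without ad libitum sample 1.

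Most remaining lists contributed single genes. The circadian clock list had 5 of 16 genes below and 0 above without overlap, with a median of -0.37, or -0.12 without ad libitum sample 2. The Notch list had 6 of 17 above and 0 below, with a median of 0.09, or 0.07 without that sample. Over all genes, 17.5% lay below and 18.3% above. Among hypoxia genes, ANKRD37 (1.21 and 1.56) held and EPAS1 (1.05 and 0.56) did not. ZBTB16, a transcription factor induced by glucocorticoids and progesterone, had 7.13 and 7.57 against 5.77 and 5.83 (-1.55 and -1.33). CRISPLD2 (1.06), DUSP4 (1.11), the Notch target HEY1 (1.19) and the heme oxygenase gene HMOX1 (1.30) were higher and came to 0.47, 0.75, 0.59 and 0.77. The chaperone gene CRYAB (-1.08), the adipokine gene RARRES2 (-1.12), CTSK (-1.76), MGST1 (-1.35), the retinoid genes ALDH1A1 (-1.35) and DHRS3 (-1.08) and the clock factor gene HLF (-1.95, below the level filter) were lower and came to -0.81, -0.64, -0.52, -0.82, -0.81, -0.72 and -0.98, so none of these 11 held. The intracellular aquaporin gene AQP11 (-1.19 and -1.24) held.

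Oocyte genes depended on a single sample. ZP4, a protein of the egg coat, had log2 signals of 4.65 and 8.29 in the ad libitum samples and 4.44 and 4.13 in the calorie restriction samples, and FIGLA, a transcription factor of oocytes, had 3.07 and 4.91 against 2.76 and 2.51. Both were lower (-2.19 and -1.35, FIGLA below the level filter) and came to -0.37 and -0.43. In both genes ad libitum sample 2 was high and ad libitum sample 1 lay next to the calorie restriction samples. The epithelial adhesion gene EPCAM, below the level filter, was lower and held (-1.49 and -1.95).

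Where a gene had another probe set past the level filter, that probe set mostly gave the direction of the first. It did so in 49 of 50 higher and 34 of 36 lower genes, and without overlap in 41 and 29. A further 98 of the 305 genes were represented by 1 probe set. An average over all probe sets of a gene was also taken, which includes those below the level filter. With it, all of the 97 named genes that were higher or lower kept their direction, and 23 came under 2-fold. Among those that held without ad libitum sample 2, they were AURKA (-0.92), BUB1 (-0.42), BOC (-0.87), DES (-0.81), PTGS1 (-0.49), NEFM (-0.56), TIE1 (0.80), IFI44 (0.68), ANKRD37 (0.71) and SREBF1 (0.53). Of these, BOC alone had another probe set past the level filter, so in the others the average was taken with probe sets of low signal. Other genes that held, given in the text but outside those 97, came under 2-fold as well. Examples were CCNB2 (-0.42), NUSAP1 (-0.62), CENPU (-0.72), CDCA3 (-0.76), ATAD2 (-0.77), ACTG2 (-0.60), NCAM1 (-0.50), PRELP (-0.84), EDN1 (0.65) and SNAP25 (0.81).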

How the data were processed

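Total RNA of 4 corpus luteum samples was extracted with TRIzol, labelled as biotin cRNA and hybridised, with 1 array for every sample (per the labels' protocols). The values the authors deposited are log2 signals per probe set, from RMA in Affymetrix Power Tools, per the submitters' processing notes, of versions not given in the sources used here. RMA corrects background, brings arrays to 1 distribution and summarises probes, so a shift shared by most genes would be removed. Detection of single probes was not analysed here, and the number of arrays limits the precision. Sequence that differs between the animals under probes designed on human genes was not analysed here.

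Of 54675 probe sets, 62 were controls and 41091 had 1 gene symbol in the platform annotation; 1801 with several symbols and 11721 with none were left out. A gene was its probe set with the highest mean, and 15504 of 19775 symbols (78.4%) are in the RefSeq vervet annotation (mChlSab1.0.hap1). Genes with a mean under log2 5.26 were left out of the main counts, fit and rankings, but were kept and counted in lists and their background. Differences were fitted with limma 3.58.1 in R 4.3.3 (lmFit, eBayes with a trend, 2 residual degrees of freedom, Benjamini-Hochberg adjustment), which was tested on simulated data; tables used Python 3.11.15 and pandas 2.3.3.

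Named genes were the 15 largest differences each way without overlap, the 10 widest gaps each way, any gene passing the test, up to 4 genes of each list that were higher or lower, and a preset group of luteal and metabolic genes; placeholder symbols were passed over. Other genes named in the text, such as list members with smaller differences, were chosen after their values were seen. The comparison, the 56 lists (1163 genes, 1068 measured, the rest not analysed here) and these rules were chosen with earlier results of these data known. No set test was run. Alternatives were other level filters and folds, cyclic loess, repeated quantile normalisation, the mean of a gene's probe sets, leaving out less specific probe sets (suffix _s_at, _x_at or _a_at), no trend, the sample number as a block, and leaving out each sample.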

Additional observations from a re-analysis of the deposited data

How the results depend on the processing

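Cyclic loess (184 higher, 126 lower), repeated quantile normalisation (184 and 132) and leaving out less specific probe sets (133 and 86) kept the counts within 1.5 times the 179 higher and 126 lower genes. The counts were 106 and 58 with a mean log2 signal of at least 7, 98 and 71 when probe sets of a gene were averaged, 427 and 369 at 1.5-fold, 51 and 45 at 3-fold, and without a level filter 195 genes were lower. Leaving out 1 sample at a time gave 70 to 606 higher and 146 to 331 lower genes, and 0 to 474 genes past the adjusted limma test. Of the 225 genes found without ad libitum sample 2, 125 (55.6%) were among the 305. Without less specific probe sets the difference reversed in ALAS2 (-0.03), BHLHE41 (0.01), DES (0.08), GATM (0.03), HBB (-0.08), IFI44 (-0.24) and MGST1 (0.03). In all 7 the remaining probe set lay below the level filter, at a mean log2 signal of 2.20 to 5.21, so these values do not show that their direction differs between probe sets. Named differences moved by more than the spread within animals in 32 of 112 genes when probe sets were averaged, in a further 11 of 90 without less specific ones, and in 0 of 112 under cyclic loess or repeated quantile normalisation. Leaving out a sample cannot pass that spread by construction; without ad libitum sample 2, 60 of the 97 named genes that were higher or lower were still 2-fold apart. Of 56 list medians, 4 moved without ad libitum sample 1, 4 without ad libitum sample 2, 1 without calorie restriction sample 2, 2 without less specific probe sets and, of 53 that could be computed, 7 with the higher level filter. The sample number does not pair the animals by the labels, and same-numbered samples deviated in opposite directions (r = -0.27 over 9888 genes, which are not independent). With the number as a replicate block, 0 genes passed and 506 had an unadjusted p under 0.05 by limma; with the numbers crossed, chosen after seeing the data, 0 passed and 809 had one, and without the trend 0 and 530. The block cannot change which genes are higher or lower, since that rule uses no fit.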
